A study of Rattus norvegicus with 16 samples.

Results

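Ovaries of wild-type rats given olaparib were compared with ovaries of wild-type rats given vehicle, over all genes on the array. The arrays were taken by their sample labels alone, as the 4 labelled wild-type with olaparib and the 4 labelled wild-type with vehicle, which makes 8 of the 16 arrays of the series. All rats were females of the Jcl:SD stock, an outbred Sprague-Dawley line from CLEA Japan. The wild-type rats serve as the BRCA1-intact group of the series. Olaparib was given under the skin at 50 mg/kg each day for 14 days, beginning at 3 weeks of age, and ovaries were collected 24 h after the last dose. The make-up of the vehicle, and the schedule, age and time of collection of the vehicle rats, are not stated in the labels. The other 8 arrays, from BRCA1+/- rats with vehicle or olaparib, entered the estimate of the spread and are shown beside the wild-type values where a gene is followed across groups. The series started from 8 rats of each genotype for 8 arrays of each genotype, so an array stands for a rat as far as the labels say.

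Olaparib blocks the catalytic site of PARP1 and PARP2, enzymes that attach ADP-ribose chains to proteins at DNA breaks and so call in repair, and it also holds them on DNA. Cells that divide, or that lack homologous recombination, are the ones known to be most sensitive. At the age of these rats the ovary holds a large store of small follicles, growing follicles in which granulosa cells surround an oocyte, theca cells that make androgens, and stroma, vessels and immune cells.

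Each array measured total RNA by the fluorescence of 1 dye, and levels are given as log2 signal, the log2 of the processed spot intensity minus the 75th percentile of that array, so that 0 is the 75th percentile and a difference of 1 is a doubling. Between the 16 arrays the 75th percentile lay between 202 and 566 intensity units, and the share of probes well above background between 55.5% and 60.7%. Defining genes of the ovary were present on all 8 wild-type arrays. Log2 signals ranged from 7.20 to 8.84 for Inha (inhibin alpha), from 3.23 to 6.11 for Amh (anti-Mullerian hormone), from 2.55 to 3.41 for Foxl2, from 8.18 to 10.1 for Cyp11a1 (side-chain cleavage of cholesterol) and from 1.69 to 3.55 for Zp3 (zona pellucida). Ddx4, a germ cell marker, was not well above background often enough to be tested. The first principal component of the 8 wild-type arrays held 46.7% of the variance. Olaparib replicates 1 and 3 stood apart on it, at 117 and 118, while the other 6 wild-type arrays lay between -54.6 and -22.3. Values without this pair are given below beside many of the results it moves.

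No gene passed the test for a difference between olaparib and vehicle. Limma called 0 of 20227 genes (0% called at a Benjamini-Hochberg adjusted p of 0.05), and the lowest adjusted p was 0.964. Before adjustment, 457 genes higher with olaparib (2.26%) and 419 lower (2.07%) had a p under 0.05. In 114 genes (0.564%) all 4 olaparib arrays lay above all 4 vehicle arrays, and in 120 genes (0.593%) all 4 lay below. Separation of this kind between groups of 4 arrays also arises by chance, so these counts alone show no effect of olaparib. The median difference over all genes was -0.07, and 39.2% of genes had a difference above 0. The median 95% interval reached 0.63 to either side of the difference, and the number of arrays limits the precision. The arrays of the olaparib group differed more among themselves than those of the vehicle group. The SD was larger with olaparib for 56.4% of genes, with a median of 0.43 against 0.40.

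**Figure D1:**
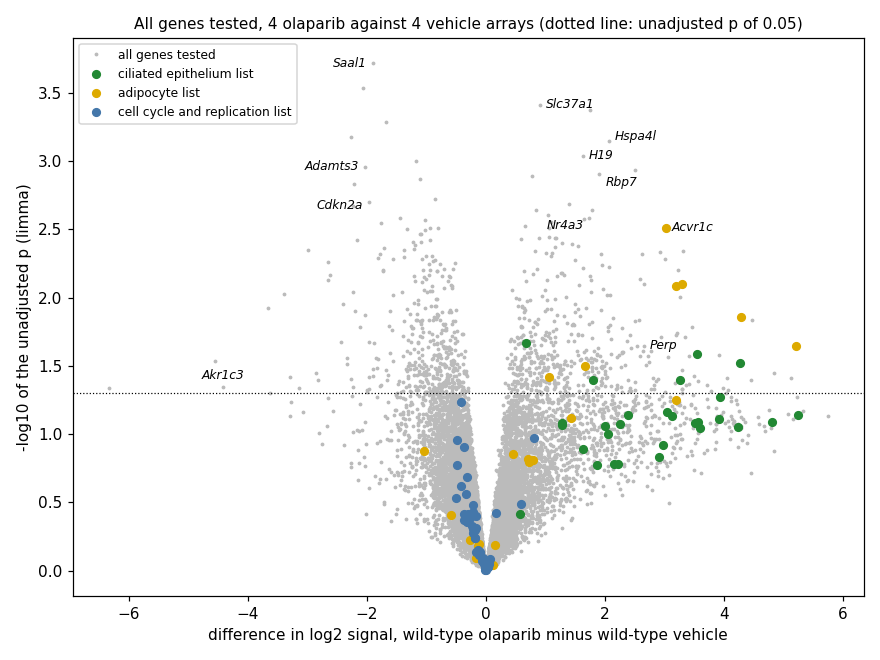
Each dot is a gene tested (20227), with its difference in log2 signal (wild-type olaparib minus wild-type vehicle, 4 arrays each) on the x axis and -log10 of limma's unadjusted p on the y axis, and members of 3 gene lists are coloured. Saal1 (unadjusted p 0.00019) lies highest, and all 28 tested members of the ciliated epithelium list lie to the right of 0, most of them below the dotted line of an unadjusted p of 0.05.

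The 15 named genes with the smallest unadjusted p in each direction are described next as values that did not pass. Of these 30, 20 had groups that did not overlap, 14 were well above background on all 8 arrays, and all 30 had the same sign within both slides, each of which carried 2 arrays of every group. Their choice by the smallest p favours such patterns, so these counts describe the genes and support nothing.

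H19 was 1 of 7 among the 15 higher genes that were well above background on every wild-type array. H19 is an imprinted long noncoding RNA transcribed from the maternal chromosome next to Igf2 and is abundant in fetal tissue. Its probe is shown because the whole result for this gene rests on it. The probe lies at chr1:202822987-202823046 of rat build rn4, on the minus strand.
H19 probe: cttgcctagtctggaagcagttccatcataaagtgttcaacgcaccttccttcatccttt
Log2 signals of H19 were 0.44, 0.26, 0.76 and 0.65 with vehicle and 2.72, 1.86, 1.56 and 2.49 with olaparib. The highest vehicle array lay below the lowest olaparib array. The difference of 1.63 (SE 0.39, 95% interval 0.79 to 2.47) amounts to 3.10-fold, with an unadjusted p of 0.00091 and an adjusted p of 0.964 in limma. It was 1.94 on slide 1 and 1.32 on slide 2, and 1.65 without olaparib replicates 1 and 3. Igf2, its neighbour with the opposite imprint, had a difference of -0.21 (SE 0.23).

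Hspa4l, a chaperone of the HSP110 family that exchanges nucleotide on HSP70, was also well above background on every array. Its log2 signals were -1.83, -2.39, -1.95 and -2.85 with vehicle and 0.87, -1.65, -0.10 and 0.11 with olaparib. The groups did not overlap, although olaparib replicate 2 lay close to the highest vehicle array. The difference was 2.06 (SE 0.48, 95% interval 1.03 to 3.09), a 4.18-fold higher mean, and a second probe gave 1.68. Across the heat shock list the values were mixed. Of its 21 tested members, Hspa4l included, 6 had differences above 0 and 15 below, with a median of -0.04 against -0.07 over all genes. Hspa1a, the inducible HSP70, differed by 0.11 (SE 0.40), Hspa8 by -0.02 (SE 0.38) and Hsph1 by -0.02 (SE 0.41), Dnajb1 by -0.33 (SE 0.20) and Hspe1 by -0.47 (SE 0.32).

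Rbp7, a retinol-binding protein found in endothelium and fat, had log2 signals of -0.54, -2.20, -0.77 and -1.66 with vehicle and 1.22, 0.26, 0.72 and 0.22 with olaparib. Again the groups did not overlap, and the lowest olaparib array was 0.22 against -0.54 for the highest vehicle array. The difference was 1.90 (SE 0.47), and the second probe of the gene gave 1.47. Other members of the endothelium list showed no such separation. Vwf, the clotting factor stored by endothelium, had a difference of -0.48 (SE 0.26) by its brighter probe and 0.21 by the other, and Plvap, a protein of vessel diaphragms, one of 0.44 (SE 0.24).

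Slc37a1, a sugar-phosphate exchanger, had the smallest unadjusted p among the higher genes (0.00039), with 0.30, 0.69, 0.71 and 0.32 with vehicle and 1.78, 1.12, 1.54 and 1.19 with olaparib. That separation belonged to 1 probe. Its difference of 0.90 (SE 0.20) was not seen with the second probe, which gave 0.11. Ust, a sulfotransferase of matrix sugars, likewise had 1.06 by its brighter probe and 0.22 by the other. Grifin, a galectin-like protein of the lens, had 1.77 and 1.84 by its 2 probes, with overlapping groups. Without olaparib replicates 1 and 3 the differences of Slc37a1, Ust and Grifin were 0.65, 0.66 and 1.01. Chd7, a chromatin remodeller, differed by 0.65 (SE 0.18, and 0.23 with the normexp background correction, which compresses dim signals), with log2 signals from -3.42 to -2.84 with vehicle and from -2.88 to -2.36 with olaparib.

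Nr4a3 was higher on every olaparib array. It encodes an orphan nuclear receptor whose transcript appears within the first hours of many stimuli, including gonadotropins in the ovary. Log2 signals were -4.73, -4.04, -5.43 and -4.41 with vehicle, 1 of them not well above background, and -3.26, -2.87, -3.34 and -2.19 with olaparib. The difference was 1.74 (SE 0.48) and a second probe gave 1.34, but with the normexp correction the difference was 0.43. Nr4a1, its better-measured relative, had 1.61, 2.14, 2.47 and 1.83 with vehicle and 2.56, 2.55, 2.95 and 2.87 with olaparib. These groups did not overlap either. The difference of 0.72 (SE 0.41) had an unadjusted p of 0.096.

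Among the genes with lower values, Saal1, which takes its name from a serum amyloid A-like domain, had the smallest unadjusted p of the comparison (0.00019). Its log2 signals were 0.44, 2.29, 1.03 and 1.65 with vehicle and -0.52, -0.30, -0.70 and -0.69 with olaparib. All 4 olaparib arrays lay below the lowest vehicle array and close together, while the vehicle arrays were spread widely. The difference was -1.91 (SE 0.38, 95% interval -2.73 to -1.08), a mean 3.75-fold lower, with an adjusted p of 0.964 in limma. It was -1.77 on slide 1 and -2.04 on slide 2, and -1.85 without olaparib replicates 1 and 3. The gene had no second probe among those kept.

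Cdkn2a, the locus of the cell cycle inhibitors p16 and ARF, had log2 signals of -2.15, -1.32, -1.47 and -1.69 with vehicle and -4.06, -2.36, -5.22 and -2.89 with olaparib. The groups did not overlap. Olaparib replicates 1 and 3 were the lowest, and without them the difference of -1.97 (SE 0.52) became -0.97, and with the normexp correction it was -0.98. Adamts3, a protease that trims procollagen and processes VEGF-C, was lower by the same kind of margin, at -4.14, -2.61, -3.16 and -2.70 with vehicle and -5.28, -4.91, -6.27 and -4.30 with olaparib. Its difference was -2.04 (SE 0.50), the second probe gave -0.81, the normexp correction gave -0.62, and 2 of the 4 olaparib arrays were not well above background. Sytl2, a vesicle-tethering protein, differed by -1.03 (SE 0.28) and Klk14, a secreted protease, by -1.11 (SE 0.32), by -1.50 with a second probe and by -0.52 with the normexp correction.

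Several genes, some of them among the 30, were not well above background on any array of a group, which leaves only a bound on the fold. Olfm4, a secreted glycoprotein of epithelial crypts, was well above background on all 4 vehicle arrays and no olaparib array. Its signals were -4.66, -3.01, -3.62 and -3.70 against -6.01, -7.12, -5.54 and -5.21, so it was at least 3.61-fold lower with olaparib. Kif26b, an atypical kinesin, was at least 2.20-fold lower and Slc10a5, a carrier of the bile acid transporter family, at least 1.60-fold lower by the same criterion. In the other direction, Eya2, a transcriptional coactivator with phosphatase activity, was well above background on all 4 olaparib arrays and no vehicle array, at least 6.94-fold higher. Its olaparib values were -0.64, -5.39, -1.12 and -4.27, so that bound rests on replicates 1 and 3, without which the measured difference of 2.79 was 0.82. Armc3, an armadillo repeat protein, was at least 4.02-fold higher, also with replicates 1 and 3 highest (-2.48 and -2.53 against -5.32 and -4.88). Abcc8, the sulfonylurea receptor, was at least 2.02-fold higher without that pattern, at -4.78, -5.45, -4.14 and -4.89. Such a pattern, all arrays of a group and none of the other, was found for 5 genes with olaparib (3 named) and 4 with vehicle (3 named). Of the remaining genes of this kind among the 30, Akr1d1 and Ccl1 were at least 2.02-fold and 2.09-fold higher, and Prp2 and Pcdhb5 at least 2.07-fold and 1.92-fold lower. On a dim array the bound used its lowest signal among probes well above background, or that of the probe itself where higher. With the normexp correction, differences were -0.48 for Olfm4, -0.34 for Kif26b, -0.17 for Slc10a5, 1.00 for Eya2, 0.48 for Armc3 and 0.09 for Abcc8. For Akr1d1, Ccl1, Prp2 and Pcdhb5 they were 0.05, 0.05, -0.28 and -0.28. All were smaller than the bounds, which hold for the main processing only.

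Some of the same genes were then followed into the BRCA1+/- groups. For H19 the log2 signals were 1.15 to 2.72 in BRCA1+/- with vehicle and 1.11 to 2.36 in BRCA1+/- with olaparib. Both ranges lay above the whole wild-type vehicle range of 0.26 to 0.76. Saal1 had -0.80 to 0.15 in BRCA1+/- with vehicle against 0.44 to 2.29 in wild-type with vehicle, and -0.57 to 0.88 in BRCA1+/- with olaparib. Hspa4l, Rbp7 and Nr4a3 also had their lowest group mean in wild-type with vehicle, at -2.26, -1.29 and -4.65, while the means of BRCA1+/- with vehicle were -0.28, 0.70 and -2.66. For others of the 30 the outlying mean was wild-type with olaparib. Grifin had means of -1.01 and 0.77 in wild-type with vehicle and olaparib, and -0.47 and -0.74 in BRCA1+/-. Prp2 had -4.96 and -6.64, and -5.09 and -5.56. Choice by the wild-type difference favours an outlying wild-type group of either kind. In BRCA1+/- rats the olaparib difference was -0.53 for H19, 0.58 for Saal1, -0.83 for Hspa4l, -0.62 for Rbp7 and -0.86 for Nr4a3.

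The interaction, the BRCA1+/- difference minus the wild-type one, was -2.16 for H19 (95% interval -3.35 to -0.98), 2.48 for Saal1 (1.32 to 3.65) and -2.90 for Hspa4l (-4.35 to -1.44). It holds the wild-type difference by which these genes were picked. Limma called 0 of the 30 interactions, with a lowest adjusted p of 0.968 over all genes, and 24 of the 30 had an unadjusted p under 0.05, as had 695 of all 20227 genes. The olaparib difference in BRCA1+/- rats had the same sign as in wild-type rats for 5 of the 15 higher genes and 7 of the 15 lower genes. Of the 234 genes whose wild-type groups did not overlap, 90 had the same sign in BRCA1+/- rats. The share with the same sign over all genes was not counted, so these counts show no reversal particular to the picked genes.

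**Figure D2:**
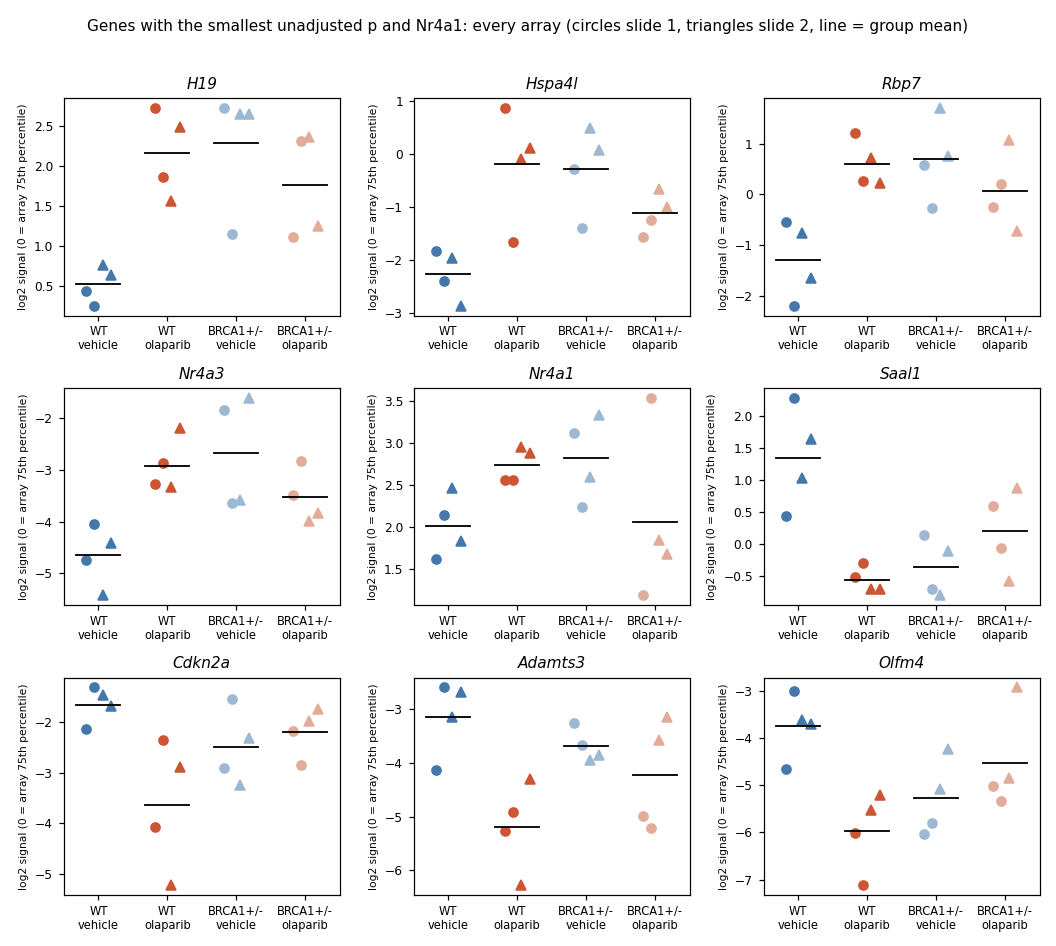
Log2 signal (y axis, 0 is the 75th percentile of the array) of 9 genes on every array of the 4 groups (x axis), with circles for slide 1, triangles for slide 2 and a line at the mean of each group (n = 4). The 9 were picked from the genes whose wild-type vehicle and wild-type olaparib arrays do not overlap (0.564% of all genes higher and 0.593% lower with olaparib), so their separation is no result. For H19 the wild-type vehicle arrays (0.26 to 0.76) lie below those of all 3 other groups.

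The targets of the drug and the genes of its pathway gave small measured differences, with wide intervals for some. Parp1, the main target, had log2 signals of 4.42, 4.40, 4.31 and 4.10 with vehicle and 3.79, 4.26, 4.11 and 4.18 with olaparib, a difference of -0.22 (95% interval -0.56 to 0.11). The ranges overlapped, and the interval leaves out a 2-fold change in either direction. Parp2 differed by -0.34 (95% interval -0.95 to 0.27), and Parp3 by -0.55 (95% interval -1.41 to 0.32), with 0.12 on slide 1 and -1.22 on slide 2. The interval of Parp3 does not leave out a 2-fold fall. Over the 25 tested members of the PARP and ADP-ribose list, differences ran from -0.56 to 0.41, 8 above 0 and 17 below, with a median of -0.16. Adprh, which removes ADP-ribose from arginine, was the member whose groups did not overlap (0.593% of all genes were lower in this way). It had 1.58, 1.74, 1.52 and 1.81 with vehicle and 1.19, 1.36, 1.46 and 1.28 with olaparib (difference -0.34, SE 0.15, unadjusted p 0.036). Macrod1, a hydrolase of mono-ADP-ribose, lay the other way at 0.41 (SE 0.21), and Parp14, an interferon-induced mono-transferase, at -0.56 (SE 0.35).

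Base excision and single-strand break repair genes, which act on the lesions that PARP1 marks, had 7 differences above 0 and 16 below among 23 tested. The median was -0.18, and it was -0.25 on slide 1 and 0.05 on slide 2. Mutyh, a glycosylase for mispaired adenine, differed by -0.42 (SE 0.22) and by -0.43 with its second probe, Apex1, the abasic site nuclease, by -0.25 (SE 0.17), and Pcna, the replication clamp, by -0.32 (SE 0.24). Homologous recombination and Fanconi genes had 9 above 0 and 37 below among 46 tested, in a narrow range of -0.49 to 0.10. Their median of -0.12 was -0.34 on slide 1 and 0.07 on slide 2, and 13 of the 46 had their highest value on olaparib replicate 3. Brca1 itself had -0.15, -0.11, -0.70 and -0.81 with vehicle and -0.77, -0.74, 0.17 and -0.91 with olaparib (difference -0.12, SE 0.27). Chek2, a checkpoint kinase, differed by -0.46 (SE 0.30). None of these members had an unadjusted p under 0.05.

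Targets of p53, which is activated by unrepaired breaks, had 18 differences above 0 and 15 below among 33 tested, with a median of 0.03 (-0.03 when arrays were scaled to their median). Well-known targets were near 0, with Cdkn1a at -0.12 (SE 0.53), Mdm2 at -0.02 (SE 0.22) and Bax at -0.09 (SE 0.17). Perp, a p53 target that is also a desmosome protein of epithelia, was the exception by size. It had -0.99, -2.09, -1.61 and -1.85 with vehicle and 3.22, -0.48, 2.62 and -1.29 with olaparib, so replicates 1 and 3 carried a difference of 2.66 (SE 1.04, unadjusted p 0.023), which was 0.76 without them.

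Cell cycle and replication genes differed between the slides. Of 50 tested, 8 had differences above 0 and 42 below, with a median of -0.17, but the median was -0.64 on slide 1 and 0.27 on slide 2, and 10 of the 50 had the same sign on both. Mean levels of the list, each gene centred over the 8 arrays, were 0.42, 0.41, -0.52 and -0.01 with vehicle and -0.27, -0.02, 0.34 and -0.35 with olaparib. Vehicle replicates 1 and 2 and olaparib replicate 3 were high and vehicle replicate 3 low, so the groups overlapped. Mki67, the proliferation antigen, had 3.49, 3.39, 2.44 and 2.68 with vehicle and 2.57, 2.99, 3.32 and 2.63 with olaparib. Cdc25c, the phosphatase that starts mitosis, had the smallest p of the list (0.058, difference -0.43), with -0.79 on slide 1 and -0.06 on slide 2. Ccnd1, cyclin D1, lay the other way at 0.81 (SE 0.47).

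**Figure D3:**
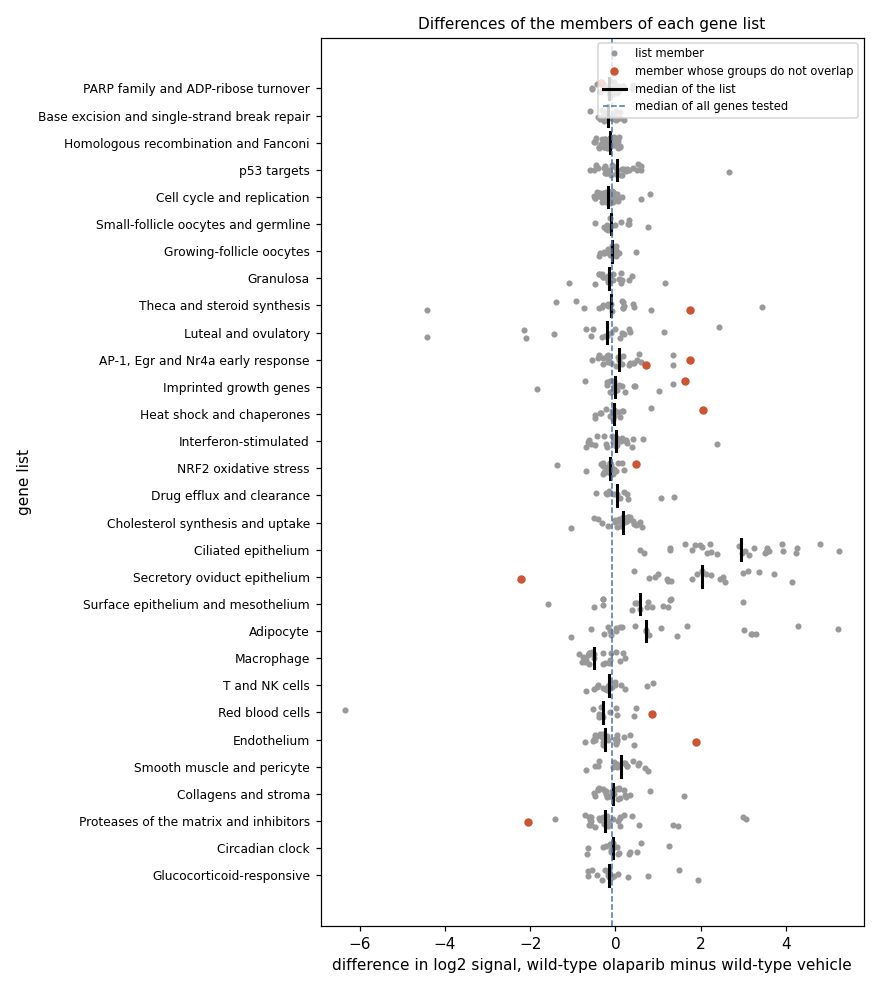
Differences in log2 signal between wild-type olaparib and wild-type vehicle (x axis) for every tested member of the 30 gene lists (rows), with a black bar at the median of each list, orange dots for members whose groups do not overlap, and a dashed line at the median of all genes (-0.07). Members of the 2 DNA repair lists lie between -0.61 and 0.19, while the ciliated (median 2.94) and secretory oviduct (median 2.03) lists lie far to the right.

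Oocyte genes were high on 1 array of the olaparib group. Of 21 genes of growing-follicle oocytes, 5 had differences above 0 and 16 below, with a median of -0.07. The median was -0.81 on slide 1 and 0.49 on slide 2, with 1 of the 21 of the same sign on both, and it was -0.47 without olaparib replicate 3 and 0.14 without olaparib replicate 2. In all, 20 of the 21 had their highest value on olaparib replicate 3 (11.4% of all named genes did). The levels of the list ranged from -0.48 to 0.53 with vehicle and were -0.10, -0.64, 1.11 and -0.55 with olaparib. Gdf9, a growth factor secreted by the oocyte, was likewise highest there, with 1.30, 2.15, 1.22 and 1.18 with vehicle and 1.30, 0.48, 2.69 and 0.73 with olaparib. Nlrp5, a maternal-effect protein, had 0.41 on olaparib replicate 3 and -1.72 to -0.57 elsewhere. Small-follicle and germline genes had 5 above 0 and 9 below among 14 tested of 20 listed, with a median of -0.11 that was -0.44 without olaparib replicate 3 and 0.17 without olaparib replicate 4. Here too 9 of 14 were highest on olaparib replicate 3. Kit, the receptor by which oocytes and theca cells read Kit ligand, had the highest difference of the list, 0.75 (SE 0.38). Taf4b, a germ cell transcription factor subunit, differed by 0.30 (SE 0.21). Mael lay the other way at -0.27 (SE 0.31), and the lowest member of the list at -0.48. Sohlh2, Ddx4, Sycp3, Stag3, Tdrd9 and Rnf17 were too dim to be tested. In whole ovaries, fewer cells of a type and less RNA per cell cannot be told apart.

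Granulosa genes had 7 differences above 0 and 17 below among 24 tested (median -0.16, and 0.03 without olaparib replicates 1 and 2). Nr0b1 (DAX1), a nuclear receptor that represses steroid synthesis, was the member with an unadjusted p under 0.05 (2.07% of all genes were lower at that p). It had -0.35, 1.23, 1.01 and 0.67 with vehicle and -1.31, -0.90, 0.97 and -0.58 with olaparib, a difference of -1.09 (SE 0.46) with overlapping groups. Fst, the activin-binding follistatin, differed by -0.47 (SE 0.26) and by -0.72 with its second probe, and Inha by -0.38 (SE 0.26). Amh and Foxl2, which mark granulosa cells of small growing follicles and their identity, differed by 0.09 and 0.14.

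Several theca, steroid and luteal genes were far lower on single arrays of a group. Akr1c3, a ketosteroid reductase, had 5.43, 7.35, 8.64 and 7.20 with vehicle and 0.86, 6.25, -4.69 and 8.54 with olaparib. Its difference of -4.41 (SE 2.01, unadjusted p 0.045) rested on olaparib replicates 1 and 3 and was 0.24 without them. Star, which carries cholesterol into mitochondria, was 0.51 on olaparib replicate 3 and between 5.79 and 6.93 on the other 7 arrays. Runx2, a transcription factor of the ovulatory follicle, was -4.44 on that array and 1.35 to 2.96 on the others, and Ptgfr, the prostaglandin F receptor of the corpus luteum, was -7.16 there and -4.27 on olaparib replicate 1, against -2.14 to 1.89 elsewhere. Cyp17a1, an enzyme of androgen synthesis in theca, had 4.63, -1.57, 4.90 and -1.74 with vehicle and 4.91, 4.28, 6.41 and 4.37 with olaparib, a difference of 3.44 (SE 1.70, unadjusted p 0.062). Vehicle replicates 2 and 4 were the low arrays, and the groups overlapped. Cyp11a1 and Hsd3b1, the first steps of steroid synthesis, differed by -0.28 (SE 0.33) and -0.12 (SE 0.38).

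The 22 tested genes of theca and steroid synthesis had 10 differences above 0 and 12 below (median -0.10, and 0.25 without olaparib replicates 1 and 3), and the 19 luteal and ovulatory genes 7 above and 12 below (median -0.20, and 0.44 without olaparib replicates 1 and 3). Ptgs2, the inducible prostaglandin synthase, went the other way, with -4.27, -5.31, -5.18 and -5.48 with vehicle and -1.53, -3.81, -0.61 and -4.55 with olaparib (difference 2.44, SE 0.96, unadjusted p 0.023, 0.88 without the same pair and 0.92 with the normexp correction). Ereg, an EGF-like ligand of the ovulatory cascade, differed by -2.09 (SE 1.16). Genes of cholesterol synthesis and uptake had 20 differences above 0 and 7 below among 27 tested, with a median of 0.19. The median was 0.59 without olaparib replicate 3, 0.87 without replicates 1 and 3, -0.14 without olaparib replicate 2, -0.025 without olaparib replicate 4 and -0.033 without vehicle replicate 3. That list varied within both groups, with levels of 0.91, -0.53, -0.66 and 0.03 with vehicle and -0.03, 0.91, -1.30 and 0.67 with olaparib. On olaparib replicate 3, 22 of the 27 had their lowest value of the 8 arrays, against 19.7% of all named genes. Sqle, squalene epoxidase, differed by 0.63 (SE 0.47).

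The early response list holds Nr4a1 and Nr4a3 and the AP-1 and Egr factors, whose transcripts change within minutes to hours. Of 27 tested, 16 had differences above 0 and 11 below, with a median of 0.08 against -0.07 over all genes (-0.049 without olaparib replicate 4 and -0.093 without vehicle replicate 1). The 2 members whose groups did not overlap were Nr4a1 and Nr4a3, both higher, against 0.564% of all genes. Fos had -2.75, -1.90, -1.48 and -2.41 with vehicle and -2.59, -2.19, 0.95 and 0.73 with olaparib, which is -0.06 on slide 1 and 2.78 on slide 2. Fosb showed the same split, at -5.12 and -4.68 on olaparib replicates 1 and 2 and -2.22 and -1.43 on replicates 3 and 4. Ier3, a survival factor, differed by 0.55 (SE 0.34) and Btg2, an antiproliferative factor that is also a p53 target, by 0.59 (SE 0.38). In BRCA1+/- rats the median of the list was -0.45.

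The promoter of Nr4a1 is shown because its transcript separated the groups on well-measured signal and because many early genes are read through cAMP response elements. It spans chr7:134259888-134260187 on the plus strand of RefSeq build GRCr8, from 250 bases before the start to 50 after, with matches to TGACG, the core of the element, in capitals (they read CGTCA on the strand shown).
Nr4a1 promoter: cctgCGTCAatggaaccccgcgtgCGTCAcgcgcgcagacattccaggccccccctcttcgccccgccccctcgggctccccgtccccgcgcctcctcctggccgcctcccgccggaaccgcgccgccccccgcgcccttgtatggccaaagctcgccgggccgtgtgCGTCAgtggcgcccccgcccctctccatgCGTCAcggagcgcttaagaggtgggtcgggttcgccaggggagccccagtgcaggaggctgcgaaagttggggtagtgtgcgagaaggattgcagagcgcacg
It holds 4 matches, counted on both strands. Of 27457 rat promoters of the same length, 21.96% hold at least 1 match and 70 hold 4 or more. These matches describe the sequence and were not tested as binding sites.

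Imprinted growth genes, H19 included, had 10 differences above 0 and 11 below among 21, with a median near 0. Dlk1, a growth regulator of precursor cells, was well above background on 3 vehicle arrays and no olaparib array, with a mean at least 2.33-fold lower. Its groups overlapped, at -5.34, -3.59, -7.16 and -3.09 with vehicle and -6.89, -5.75, -6.61 and -7.32 with olaparib. With the normexp correction the difference was -0.46. Nnat, neuronatin, was higher at 0.99, 0.31, 1.05 and 1.05 with vehicle and 3.19, 1.25, 2.14 and 0.93 with olaparib (difference 1.03, SE 0.47), with replicates 1 and 3 again highest.

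Stress and hormone programmes gave medians close to that of all genes. Interferon-stimulated genes had 14 differences above 0 and 13 below among 27 (median 0.02, and -0.04 with arrays scaled to their median), with Isg20, an exonuclease, at 4.84 and 4.06 on olaparib replicates 1 and 3 and -1.05 to 0.33 on the other 6 arrays. NRF2 targets of the oxidative stress response had 5 above 0 and 19 below among 24 (median -0.13, and 0.13 without olaparib replicates 1 and 3). Gstm1, a glutathione transferase, was the NRF2 target whose groups did not overlap (0.564% of all genes were higher in this way). It had 4.35, 3.99, 4.58 and 4.68 with vehicle and 4.97, 4.78, 4.93 and 4.80 with olaparib (difference 0.47, SE 0.18, unadjusted p 0.021), and its second probe gave 0.38. Drug efflux and clearance genes had 7 above 0 and 6 below among 13 of 23 listed (median 0.03, and -0.04 with arrays scaled to their median), and Abcb1a, the efflux pump that carries olaparib, was too dim to be tested. Clock genes had 8 above 0 and 10 below among 18 (median -0.05), and glucocorticoid-responsive genes 5 above and 14 below among 19 (median -0.14). Bmal1, the clock activator, differed by -0.65 (SE 0.38), from 0.65 to 1.23 with vehicle and from -0.85 to 1.12 with olaparib, and Sgk1, a kinase induced by glucocorticoids, by -0.56 (SE 0.36).

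Markers of epithelia outside the follicle had the largest list medians. All 28 tested members of the ciliated epithelium list, which line the oviduct, had differences above 0, with a median of 2.94. Of these, 5 had an unadjusted p under 0.05, against 2.26% of all genes on the higher side. The groups overlapped for each of the 28. Only 16 of the 28 were well above background on all 4 vehicle arrays, so some members passed the filter through groups where their signal was high. With probes well above background on all 16 arrays the median was 2.25. The summed signal of the list, in multiples of the 75th percentile, was 5.24, 12.6, 7.22 and 5.48 with vehicle and 242, 6.66, 227 and 15.8 with olaparib. Every one of the 28 had its 2 highest values on olaparib replicates 1 and 3, where 11.0% of all named genes did. Foxj1, the master regulator of motile cilia, by its brighter probe had 4.06 and 3.85 on these arrays and -4.58 to -0.75 on the other 6. Rsph1, a radial spoke protein, had 3.81 and 3.87 there and -1.93 to 0.42 elsewhere. Without that pair the median was 0.62. In BRCA1+/- rats the summed signal ranged from 5.90 to 313 with vehicle and from 5.33 to 148 with olaparib.

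Secretory oviduct epithelium followed the same arrays. Of 21 tested members, 20 had differences above 0 (median 2.03, and 0.23 without olaparib replicates 1 and 3), and 18 had their 2 highest values on these replicates. The summed signal was 39.2 to 59.6 with vehicle and 342, 59.4, 278 and 77.0 with olaparib. Pax8, a transcription factor of secretory cells, had 2.34 and 2.09 on replicates 1 and 3 and -2.97 to -0.66 elsewhere. Olfm4, described above, was the 1 member below 0. Cdh1, E-cadherin, had 1.12, -0.70, 1.88 and -0.54 with vehicle and 3.64, 1.74, 3.33 and 1.16 with olaparib, a difference of 2.03 (SE 0.68, unadjusted p 0.0096) that was 1.01 without the pair. Spint2, a protease inhibitor of epithelia, kept most of its difference without it (0.79 and 0.72). Surface epithelium and mesothelium genes had 12 above 0 and 5 below among 17 (median 0.57), with 1.72 on slide 1 and -0.22 on slide 2. The median was -0.048 without olaparib replicates 1 and 3 and -0.24 without olaparib replicates 1 and 2. Wt1 had 3.00 and 2.73 on olaparib replicates 1 and 3 against 1.08 to 1.73 on the other arrays, and Krt18 6.75 and 6.49 against 0.31 to 2.66. Their differences of 0.85 and 2.99 were 0.17 and 0.71 without the pair. Krt8, Krt18 and Krt19 are also on the secretory oviduct list. Cdh2, another surface list member, lay the other way at -0.50 (SE 0.24, and -0.61 by its second probe). The lowest difference of the surface list was -1.59. Whether oviduct was collected with the ovary is not stated in the labels, and the part of these cell types in the differences of other genes was not tested. Among the genes described above, Perp, Isg20, Phlda2 (-0.90 and -1.15 on the pair, -3.94 to -3.02 elsewhere), Nnat, Eya2 and Armc3 had their 2 highest values on the same arrays. Without the pair, H19, Saal1 and Nr4a3 had differences of 1.65, -1.85 and 2.12. Those of Cdkn2a, Grifin and Slc37a1 went from -1.97, 1.77 and 0.90 to -0.97, 1.01 and 0.65. These genes were picked by a p that includes the arrays left in, so a difference that remains supports nothing.

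**Figure D4:**
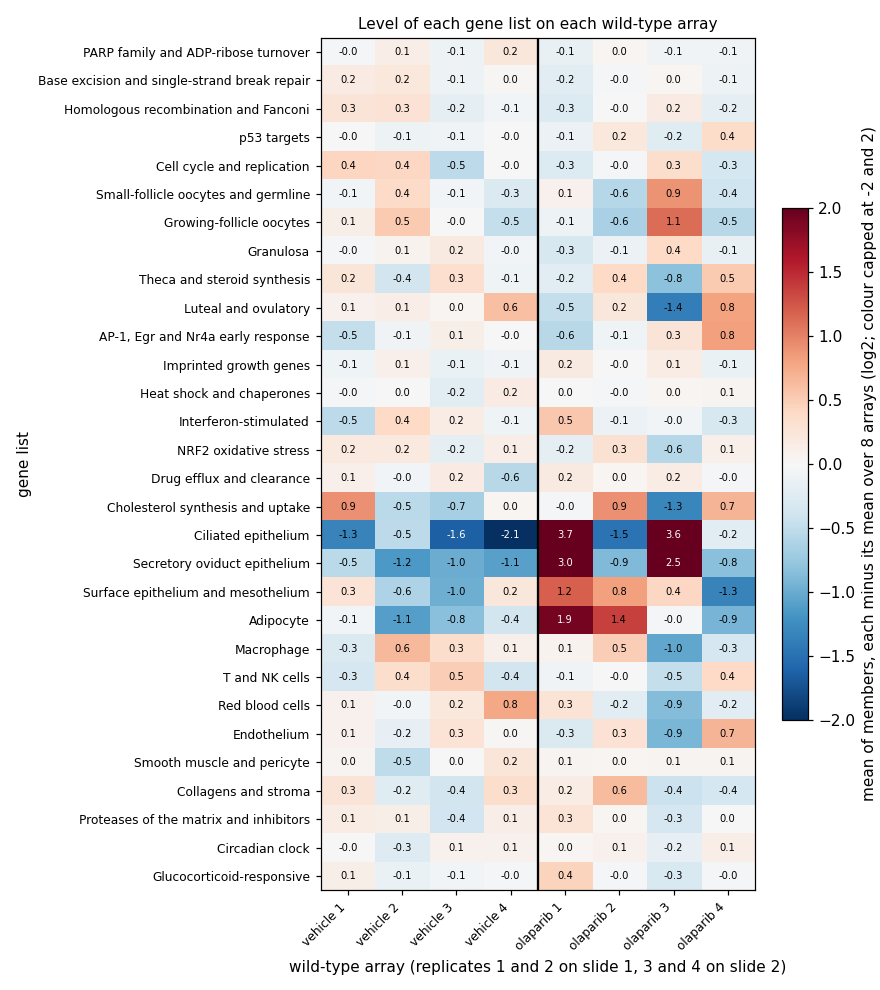
Mean level of each of the 30 gene lists (rows) on the 8 wild-type arrays (columns), as log2 signal after each member was centred over the 8 arrays, with vehicle left and olaparib right of the black line. Ciliated and secretory lists are high on olaparib replicates 1 and 3 (3.70 and 3.57 for ciliated), the adipocyte list on olaparib replicates 1 and 2 (1.92 and 1.37), and oocyte lists on replicate 3, where luteal (-1.39) and cholesterol (-1.30) lists are low.

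Adipocyte genes were high on a different pair of arrays, and the labels do not state whether fat was collected with the ovary. Of 23 tested members, 17 had differences above 0, with a median of 0.71, and 7 higher members had an unadjusted p under 0.05, against 2.26% of all genes. Some members, such as Lep and Aqp7, passed the filter through the olaparib group alone, and with probes well above background on all 16 arrays the median was 0.11. The summed signal was 73.9 to 97.5 with vehicle and 186, 133, 78.6 and 99.0 with olaparib, and 10 of the 23 had their 2 highest values on olaparib replicates 1 and 2 (3.15% of all named genes did). Lep, the hormone leptin, was well above background on no vehicle array and 3 olaparib arrays, at least 5.33-fold higher, with -0.48, -1.93, -4.86 and -7.16 on the olaparib arrays. Aqp7, a glycerol channel of fat cells, was at least 3.82-fold higher in the same way, at -1.31, -2.55, -5.35 and -7.35. With the normexp correction the differences of Lep and Aqp7 were 0.93 and 0.73, smaller than these bounds. Acvr1c (ALK7), an activin receptor of fat, had the smallest p of the list (0.0031). It had -3.16, -7.09, -5.15 and -4.25 with vehicle and 0.07, -1.09, -2.83 and -3.69 with olaparib, with 2 of the vehicle arrays not well above background. The measured difference was 3.03 (SE 0.85), and it was 1.65 without olaparib replicates 1 and 2 and 1.15 with the normexp correction. Adipoq, adiponectin, varied within both groups, with 0.14, -7.55, -6.73 and -1.93 with vehicle and 4.79, 2.46, 2.61 and -5.06 with olaparib. Pparg, the regulator of fat cell fate that granulosa cells also express, had 3.41 to 4.24 over all 8 arrays. Without olaparib replicates 1 and 2 the median of the list was 0.08. Rbp7, which fat also expresses, had a difference of 1.76 without that pair, and the part of adipocytes in its result was not tested.

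Macrophage genes had 4 differences above 0 and 19 below among 23, with a median of -0.51. It was 0.12 on slide 1 and -1.08 on slide 2, and -0.19 without olaparib replicates 1 and 3, and 18 of the 23 had their lowest value on olaparib replicate 3. Msr1, the scavenger receptor, had -2.28, -1.50, -1.79 and -2.43 with vehicle and -2.90, -2.10, -3.18 and -2.92 with olaparib (difference -0.78, SE 0.36, unadjusted p 0.051), and its second probe gave -0.91. Tyrobp, a signalling adaptor of myeloid cells, differed by -0.75 (SE 0.37) and by -0.37 with a second probe. T and NK cell genes were dim, with 16 of 24 tested, 4 above 0 and 12 below (median -0.15).

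Endothelium had 9 above 0 and 17 below among 26 (median -0.26, 0.46 without olaparib replicates 1 and 3 and 0.13 without replicate 3 alone), with 18 of the 26 lowest on olaparib replicate 3. Smooth muscle and pericyte genes had 12 above 0 and 6 below among 18 (median 0.12), and collagen and stroma genes 11 and 15 among 26 (median -0.06). Matrix proteases and inhibitors had 11 above 0 and 19 below among 30 (median -0.24). Hgf, a growth factor made by stroma and listed with its activating proteases, had -3.56, -3.60, -2.77 and -4.00 with vehicle and -4.34, -3.95, -4.63 and -3.87 with olaparib (difference -0.72, SE 0.28, and -1.31 by its second probe). Red blood cell genes had 5 differences above 0 and 9 below among 14 (median -0.30). It was 0.42 on slide 1 and -0.92 on slide 2, with 4 of the 14 of the same sign on both, and -0.074 without vehicle replicate 4. Slc4a1, the anion exchanger of red cells, had -2.23, -2.91, -2.31 and -2.02 with vehicle and -1.80, -0.65, -1.78 and -1.79 with olaparib (difference 0.86, SE 0.38). It was the red cell member whose groups did not overlap (0.564% of all genes were higher in this way). Hba-a3, an alpha globin gene with near-identical copies, had 3.65 to 4.81 with vehicle and 3.99, -7.92, -7.71 and 2.90 with olaparib, so 2 arrays were far lower, while Hbb, the beta chain, ranged from 1.47 to 4.09 over all 8 arrays and differed by 0.01 (SE 0.55).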

How the data were processed

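The authors read each 1-dye array with Agilent Feature Extraction 10.7, per the submitters' processing notes. Per the file headers, the processed signal is an intensity, background-subtracted and detrended within the array. The deposited value table holds log2 values that differ from log2 of that signal by 1 fixed amount for each array (r 1.0 over 43267 probes). The statistical test of the authors is not given in the sources used here.

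Outlier spots were left out, spots of a probe averaged, and the 75th percentile of each array subtracted on the log2 scale. Of 45598 probes, 26820 were kept, those above background (by the scanner software flag) on 3 or 4 arrays of any group. Probes were named through RefSeq accessions or symbols (9444 had no name), and the brightest probe stood for a gene, which left 20227 genes. Limma 3.58.1 (R 4.3.3) fitted 4 group means over 16 arrays, tested two-sided, with Benjamini-Hochberg adjustment over all genes. The fit was tested on simulated data with the same spread for every gene and no change shared between genes. These arrays differ from that, so the simulation does not tell what the fit misses here. Where nothing says more of the rats, p-values measure the spread between these arrays.

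The comparison, the gene lists and the genes named (Parp1, Parp2, Parp3 and Brca1, 15 genes in each direction by unadjusted p, 4 members of each of 30 lists by p, defining markers, and genes above background in 1 group only) were chosen with earlier results of these data known. Other genes (among them Igf2, Hspa1a, Hspa8, Hsph1, Cdkn1a, Mdm2, Bax, Mki67, Fosb, Runx2 and Hbb) were added as familiar members after values were seen. Arrays lie on 2 slides with 2 arrays of each group on each. Alternatives covered scaling, normalization, background, probe filters, probe choice, slide, a replicate block and left-out arrays. A few genes are not reported here.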

Additional observations from a re-analysis of the deposited data

Results flagged for a closer look

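Single arrays far from the other 3 of their group were looked for in 147 named genes and the 30 list levels, which makes 354 groups of 4. A gap beyond Dixon's 95% critical value was found in 16 (4.52%), where chance gives about 1 in 20. Values are log2 signals, each followed by the nearest array of its group. Olaparib replicate 3 stood apart for Brca1 (0.17, next -0.74), Doxl1 (-4.91, next -4.41), Chd7 (-2.88, next -2.44) and Kpna7 (-3.37, next -5.00). Vehicle replicate 3 stood apart for Akr1d1 (-6.19, next -6.96), Inha (8.84, next 8.00), Mgarp (-3.12, next -1.77), Tal1 (-2.24, next -2.83) and the level of the matrix protease list (-0.38, next 0.12). Olaparib replicate 2 was high for Aplf (0.53, next 0.04) and Slc4a1 (-0.65, next -1.78). Vehicle replicate 2 was high for Aplf (0.94, next 0.36) and low for Nnat (0.31, next 0.99). Olaparib replicate 4 was high for Ier3 (2.53, next 2.06) and low for Hlf (-3.18, next -2.31), and vehicle replicate 4 was low for Sytl2 (-1.21, next -0.96). No interaction between genotype and treatment passed in limma, where the lowest adjusted p was 0.968.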

How the results depend on the processing

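Limma called 0 genes under the main setting and under each of the 20 alternatives, with 358 to 2122 genes at an unadjusted p under 0.05 and a lowest adjusted p of 0.0919, found without olaparib replicate 3. The number of genes whose groups did not overlap, 234, was 386 with no filter on dim probes, 352 with slide as a block, 952 with the replicate block, 166 with the normexp correction and 159 with probes well above background on all 16 arrays. It ranged from 292 to 1210 when 1 array was left out, and was 1563 without olaparib replicates 1 and 3 and 1603 without olaparib replicates 1 and 2, both left out after seeing the data. Fewer arrays make separation easier by construction. Arrays of the same number in both groups had correlations of 0.293, -0.0712, 0.0704 and -7e-04 between their deviations, so the numbers were not taken as pairs. Of 147 named genes, 23 changed sign under some setting, in each case with 1 or 2 arrays left out. With 1 array left out, differences ranged from -1.11 to 0.11 for Abcc4, from -0.85 to 0.080 for Dhcr7, from -0.025 to 0.57 for Tdrd1, from -0.039 to 0.50 for Ahr and from -0.055 to 0.90 for Ccnb3. The sign turned without olaparib replicate 3 for Abcc4, Dhcr7 and Tdrd1, without olaparib replicate 4 or vehicle replicate 1 for Ahr (-0.016 in the latter case), and without vehicle replicate 4 for Ccnb3. Without olaparib replicates 1 and 2 the changed genes were Brca1 (0.074), Inha (0.035), Oas1d (0.27), Ooep (0.032) and Rsad2 (-0.15). Without olaparib replicates 1 and 3 they were Abcc4 (0.79), Abcc9 (0.0022), Akr1c3 (0.24), Aplnr (0.14), Bmal1 (0.077), Cd8a (-0.44), Dhcr7 (0.45), Fam107a (-0.49), Hmox1 (0.17), Hspb8 (-0.18), Isg20 (-0.074), Osgin1 (0.32), Pdgfrb (0.015), Slc47a1 (-0.87), Tal1 (0.13) and Tdrd1 (-0.42). The cause was not tested. Dim probes, whose signal is near background, carry only bounds on their folds, and these hold for the main processing only.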

Other observations

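The genes without overlap between the wild-type groups went beyond those named by p. Of 182 such genes with a symbol, 135 were well above background on all 8 arrays, 69 higher and 66 lower with olaparib. The genes below were picked after their values were seen, from the 12 largest differences in each direction among these 135, leaving out genes described above and some others, and none passed the test. Among the higher ones were Rprm, a cell cycle arrest factor (3.72), the kinase Dyrk3 (2.51), Cabcoco1 (2.36, but -0.18 by its second probe), the transaminase Gpt (2.27) and the blood group protein Rhd (2.02). Rprm had 3.00 and 2.56 on olaparib replicates 1 and 3 and -2.11 and -2.14 on replicates 2 and 4, all above its vehicle values of -3.70 to -3.07. The other 4 also had their 2 highest values on olaparib replicates 1 and 3, where the ciliated signal was high, and its part was not tested.

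Prss23, a secreted protease of the follicle, had 3.97, 4.65, 4.70 and 3.76 with vehicle and 3.20, 3.72, 2.80 and 3.22 with olaparib (difference -1.03, unadjusted p 0.0088). Dmrt1, a factor of testis fate and germ cells, had -3.85, -4.04, -2.37 and -3.98 with vehicle and -4.55, -4.66, -4.80 and -4.28 with olaparib (-1.01). Mdga2, an adhesion protein of neurons, differed by -1.50, the flippase Atp8b3 by -1.10, and Esyt1, a tether between membranes, by -0.70. Wipi1, an autophagy protein, had 0.22 to 0.76 with vehicle and -0.38 to 0.18 with olaparib (-0.61), and Mtr, methionine synthase, differed by -0.59.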
